A study of Homo sapiens with 6 samples.

Results

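The genes described here are the chemokine ligands and the chemokine receptors measured in COV434 cells with and without BRG1. They were taken by gene name, as every gene called CCL, CXCL, XCL or CX3CL (ligands) or CCR, CXCR, XCR, CX3CR or ACKR (receptors) followed by its number. The rule took 67 of 19899 genes in the table, of which 45 were ligands and 22 were receptors.

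COV434 is an established human cell line from the ovary, which the study treats as a model of SCCOHT, a small cell ovarian cancer that lacks BRG1. BRG1 is the product of SMARCA4 and is one of the ATPases that drive the SWI/SNF chromatin remodeler. RNA-seq libraries came from parental COV434 cells given either control plasmid DNA (Control, n = 3) or DNA that encodes BRG1 (BRG1, n = 3), and the samples are numbered 1 to 3 in each group. Both groups also received a puromycin resistance plasmid, were put on puromycin at 2 to 3 µg/ml after 24 hours and were collected after 3 days of selection. The study's methods name PBJ5-BRG1 as the BRG1 plasmid and pCMV-neo or pCDNA3-neo as the control, so BRG1 and the plasmid backbone cannot be told apart. All samples come from 1 cell line, BRG1 was supplied transiently, and each library is a bulk pool of the cells that survived selection. In such a pool fewer cells of a kind and less RNA per cell cannot be told apart. The labels do not say that the samples were separate cultures, so the p-values measure the spread between these samples.

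Chemokines are small secreted proteins that direct the movement of leukocytes along a gradient. They are grouped by the spacing of their first cysteines into the CC, CXC, CX3C and XC classes, and they act on seven-transmembrane receptors that couple to inhibitory G proteins. The atypical receptors (ACKR) bind chemokines without this coupling and take them up or transport them. Epithelial and stromal cells make many of the ligands on exposure to interferon, TNF or IL-1, through the transcription factors of the STAT and IRF families, NF-kappaB and AP-1, whereas most of the classical receptors belong to leukocytes.

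The libraries held between 29699741 and 63613710 estimated counts, with BRG1 sample 3 the shallowest. Values below are normalised counts, that is estimated counts divided by the size factor of each library, and they are not corrected for gene length unless this is said. SMARCA4 stood at 1439, 1676 and 1538 normalised counts in Control samples 1 to 3 and at 108655, 79075 and 78589 in BRG1 samples 1 to 3, plasmid transcripts included (log2 fold change 5.84). Of 17 leukocyte markers, 10 had an adjusted p and 1 of these passed the test, a share near the 11.0% of all tested genes called higher. This was LYZ, which stayed below 23 normalised counts. With the sample number as a block, CD68 passed too (DESeq2 adjusted p 0.0013), at means of 1736 in Control and 2757 in BRG1. CD3D, CD3E, MS4A1, TYROBP and ITGAM were at 0 or below 3 in every library. The summed leukocyte list ran from 1891 to 2904 in Control and from 2472 to 3969 in BRG1, most of it CD68 and PTPRC. Of 9 fibroblast and endothelial markers, VWF and CDH5 were called higher, and of 7 granulosa markers CYP19A1 was called higher while FOXL2 and FSHR were at or near 0. The granulosa markers HSD17B1, AMH and INHA were present in both groups and not called (means of 686, 295 and 41.9 in Control and 839, 408 and 38.2 in BRG1). The part of these markers in the results below was not tested.

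A regulatory sequence can be set beside each transcript level. The promoters of 6 chemokine genes are shown because they carry the patterns described below: CXCL10 and CXCL11 as the changed ligands of CXCR3, CXCL14 and CCL20 as strongly changed ligands elsewhere, CXCL8 as a changed neutrophil ligand, and CXCL1 as its abundant neighbour with little change. Each run is the 250 bases before the RefSeq transcript start, 5′ to 3′ on the strand of the gene, in build GRCh38.p14. Capitals mark a match on either strand to the interferon-stimulated response element (ISRE, taken as GAAA, any 2 bases, GAAA), the NF-kappaB consensus or the AP-1 consensus (written TGANTCA).
CXCL10 (chr4:76023498-76023747, minus strand): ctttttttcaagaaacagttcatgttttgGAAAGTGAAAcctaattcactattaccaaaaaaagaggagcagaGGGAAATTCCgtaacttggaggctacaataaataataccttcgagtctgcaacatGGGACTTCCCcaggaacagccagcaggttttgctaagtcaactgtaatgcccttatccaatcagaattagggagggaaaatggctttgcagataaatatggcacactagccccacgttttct
CXCL11 (chr4:76036071-76036320, minus strand): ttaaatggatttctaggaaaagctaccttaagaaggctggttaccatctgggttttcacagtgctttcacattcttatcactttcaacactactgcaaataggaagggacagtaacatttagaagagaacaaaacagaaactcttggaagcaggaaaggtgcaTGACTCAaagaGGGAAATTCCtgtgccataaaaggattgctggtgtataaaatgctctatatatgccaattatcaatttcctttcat
CXCL14 (chr5:135578992-135579241, minus strand): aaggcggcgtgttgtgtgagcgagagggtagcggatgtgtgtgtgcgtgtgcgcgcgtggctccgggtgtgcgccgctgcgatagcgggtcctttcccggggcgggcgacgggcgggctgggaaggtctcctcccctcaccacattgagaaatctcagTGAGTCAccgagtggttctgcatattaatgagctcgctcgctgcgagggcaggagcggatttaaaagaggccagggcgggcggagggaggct
CCL20 (chr2:227813592-227813841, plus strand): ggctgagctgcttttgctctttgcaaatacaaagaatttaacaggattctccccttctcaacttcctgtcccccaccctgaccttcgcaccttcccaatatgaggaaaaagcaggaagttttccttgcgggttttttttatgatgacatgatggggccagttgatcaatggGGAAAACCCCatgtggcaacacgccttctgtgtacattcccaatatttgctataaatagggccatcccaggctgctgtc
CXCL8 (chr4:73740319-73740568, plus strand): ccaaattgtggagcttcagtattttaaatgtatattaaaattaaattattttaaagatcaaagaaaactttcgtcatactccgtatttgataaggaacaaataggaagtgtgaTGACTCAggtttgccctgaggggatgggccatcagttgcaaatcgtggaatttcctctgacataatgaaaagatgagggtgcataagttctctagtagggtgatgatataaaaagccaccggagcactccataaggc
CXCL1 (chr4:73869143-73869392, plus strand): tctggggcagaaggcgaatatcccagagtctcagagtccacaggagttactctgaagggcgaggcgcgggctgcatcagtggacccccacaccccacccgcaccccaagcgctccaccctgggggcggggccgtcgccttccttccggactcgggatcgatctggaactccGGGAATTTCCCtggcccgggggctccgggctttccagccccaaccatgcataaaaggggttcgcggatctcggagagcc

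The 2 interferon-associated CXC ligands differ in these windows. CXCL10 held an ISRE match and 2 NF-kappaB matches, and CXCL11 held 1 NF-kappaB match and 1 AP-1 match. CXCL14 and CXCL8 each held 1 AP-1 match and no NF-kappaB match under the letters searched. The capitals in CXCL1 are 2 NF-kappaB matches on opposite strands that overlap, and the same 2 overlapping matches were found in CXCL2, CXCL3, CXCL5 and CXCL6. A RefSeq promoter window was at hand for 45 chemokine genes, of which 13 were called higher and 32 were not. The other called genes had no window. An ISRE match was found in 4 genes, of which CXCL10 and XCR1 were called higher and CCR6 and CXCL9 were not. NF-kappaB matches were found in 10, namely 4 of the 13 called genes (CCL20, CCR3, CXCL10 and CXCL11) and 6 of the 32 others. AP-1 matches were found in 8, namely 4 of the 13 called genes (CCL7, CXCL8, CXCL11 and CXCL14) and 4 of the 32 others. Of all 35116 windows in the table, 3.02% held an ISRE match, 5.21% an NF-kappaB match and 6.57% an AP-1 match. These percentages count windows, while the counts above are of genes (45 genes with 59 windows), so the 2 are not like for like. A match describes the letters and is not a bound site, and a missing match says only that these letters are not in this window.

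A large part of the tested chemokine genes was called higher with BRG1, many of them silent in Control. Of the 67 genes, 45 received an adjusted p from DESeq2, and 23 of these (51.1%) were called higher at a DESeq2 adjusted p under 0.05, against 11.0% of all 16002 genes with an adjusted p. No chemokine gene was called lower (and 0 had a negative change with an unadjusted p below 0.05). Over all genes the share called lower was 1.84%, so 0 of 45 does not set the chemokine genes apart. Genes with 3 counts or fewer in every Control library got an adjusted p through BRG1 counts and could only be called higher. Among the called genes these were ACKR1, ACKR3, CCL3, CCL4, CCL4L2, CCL7, CCL8, CCL21, CCL26, CX3CL1, CXCL11, CXCL14 and XCR1. Much of the 51.1% thus rests on genes that could not be called lower. The edgeR quasi-likelihood test, which keeps genes of higher count, called 17 of 31 higher and 0 lower, against 9.57% and 1.02% of all genes. The genes called by DESeq2 were 16 ligands and 7 receptors. With the sample number as a block, DESeq2 called 21 higher and 1 lower, against 13.4% and 6.61% of all genes, and edgeR called 18 higher and 0 lower, against 13.7% and 5.68%.

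Many of the genes were silent in Control. In 4 genes (CCL16, CCL18, CCL24 and CXCR3) no library held a count. In 17, these 4 included, every library of both groups held 3 counts or fewer, and in 23 others this was so of Control only. Where Control held no count at all, a fold was computed against 3 counts in each library and is a lower bound, and where a few Control counts were found the ratio is given with an exact 95% interval that covers counting error only. The median fitted log2 fold change was 2.45 over the 63 genes with a count, 3.57 for ligands and 1.35 for receptors, and -0.0010 over all 18096 genes with a count, fits on only a few counts included in both. With genes at 3 counts or fewer placed at the fold against 3 counts, the median over the 45 genes that this allows was 1.35, or 1.29 for ligands and 1.79 for receptors. The groups did not overlap, with BRG1 above Control, in 30 of the 45 genes with an adjusted p, against 16.7% of all such genes. They lay the other way in 2, against 9.92%. Genes silent in Control could hardly lie the other way, so these shares are not like for like.

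**Figure D1:**
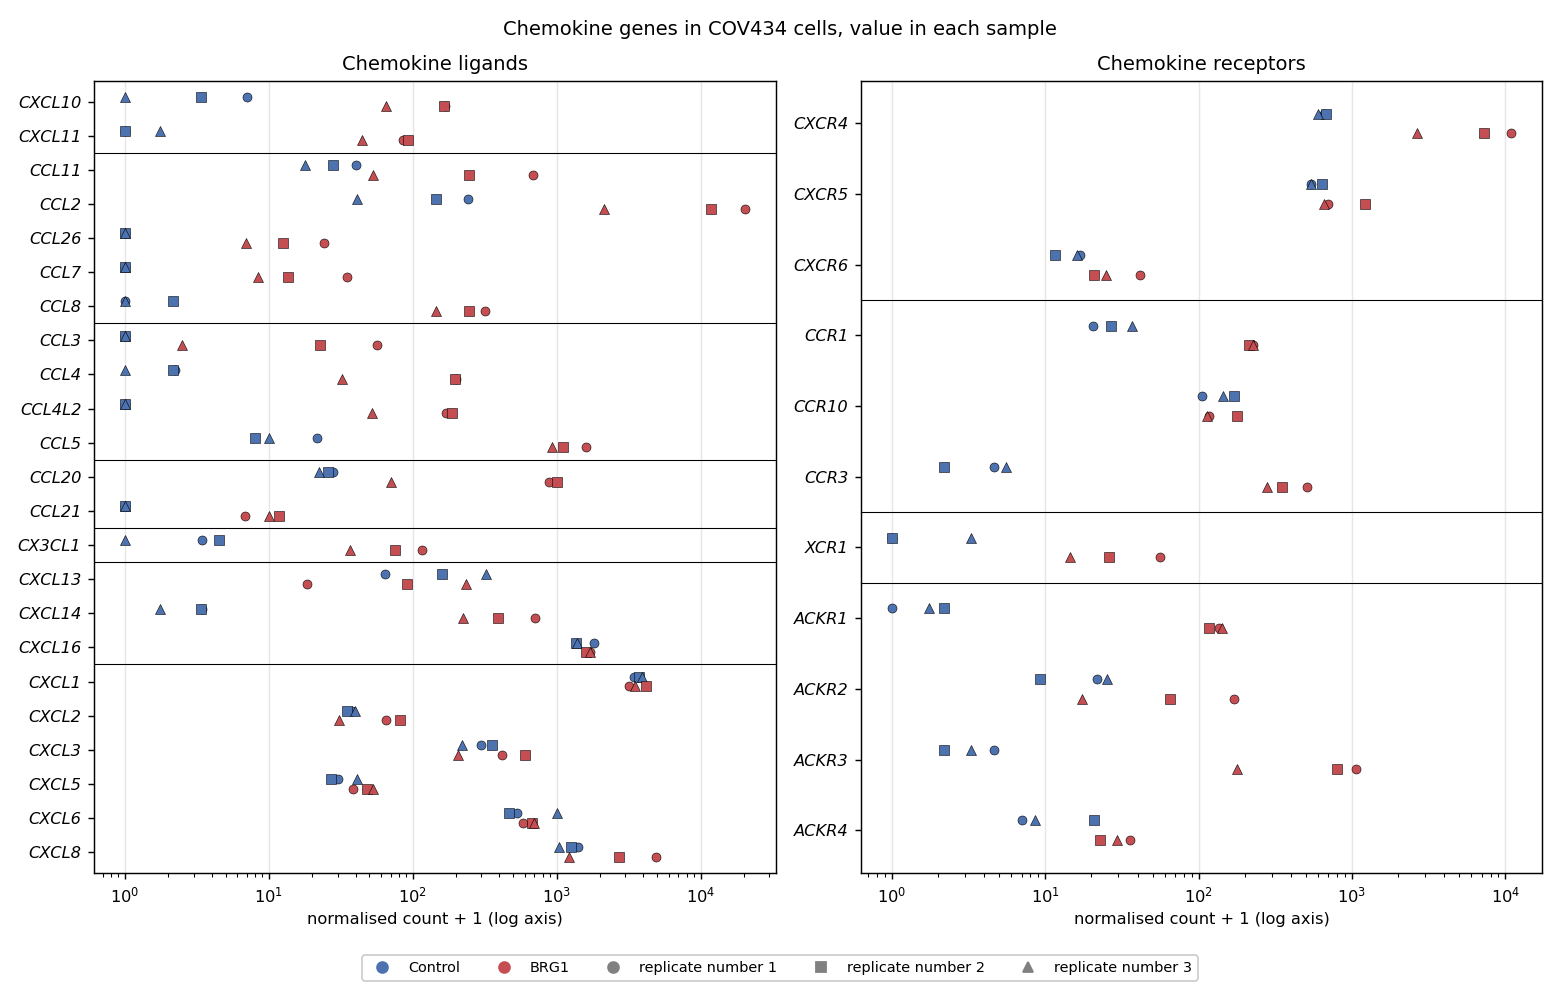
Normalised count plus 1 on a log axis for chemokine genes that were called or reached a mean of 10, ligands on the left and receptors on the right, with 1 point per sample, colour for the group, shape for the replicate number and lines between functional groups. CCL2, CCL5, CXCR4, CCR3 and ACKR3 lie far to the right in BRG1, CXCL1 and CXCL16 overlap between groups, and the triangle of BRG1 sample 3 is the lowest BRG1 point in most called genes.

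The size of the increase was not even among BRG1 samples. Sample 3 was the lowest of the BRG1 samples in 20 of the 23 called genes (87.0%), and it was also the lowest in 1415 of the 1764 genes called higher in the whole table (80.2%). The total over the 67 genes was 9373, 9231 and 9478 normalised counts in Control and 50192, 35873 and 15872 in BRG1 samples 1 to 3. SMARCA4 was highest in BRG1 sample 1, as was the chemokine total, and was nearly level between samples 2 and 3, whose totals differed. The part of the SMARCA4 level in these totals was not tested.

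CXCL10 and CXCL11, 2 of the 3 ligands of CXCR3, the receptor of activated T cells and natural killer cells, rose with BRG1. CXCL10 (chromosome 4, 76021118 to 76023497) stood at 6.09, 2.35 and 0 normalised counts in Control and at 166, 163 and 64.2 in BRG1. CXCL11 (chromosome 4, 76033682 to 76041415) was at 0, 0 and 0.757 in Control and at 84.1, 91.4 and 43.3 in BRG1. For both genes every BRG1 sample lay above every Control sample, and sample 3 reached less than the other BRG1 samples. The log2 fold change of CXCL10 was 5.70 (SE 0.79, DESeq2 adjusted p 1.9e-11). CXCL11 rested on 1 Control count against 255 BRG1 counts, a ratio of 235 (42 to 9309, DESeq2 adjusted p 7.5e-08). CXCL9, the third ligand of the group, did not exceed 1.66 in any library, and CXCR3 itself had no count in any library.

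The ligands of CCR2 and CCR3, which draw monocytes and eosinophils, were the group with the most members called, 5 of 7. CCL2, the main monocyte attractant (chromosome 17, 34255274 to 34257208), stood at 240, 145 and 40.1 normalised counts in Control and at 20208, 11733 and 2131 in BRG1. The lowest BRG1 sample was above the highest Control sample, and sample 3 was the lowest in both groups. Within sample numbers 1 to 3 the fold was 84.2, 80.7 and 53.1, and the log2 fold change was 6.32 (SE 1.02, DESeq2 adjusted p 1.6e-08).

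CCL8, a close relative of CCL2, was at 0, 1.17 and 0 in Control and at 316, 243 and 143 in BRG1, a ratio of 760 on 1 Control count (136 to 30037, DESeq2 adjusted p 2.6e-12). CCL7, another relative, had no Control count and stood at 34.1, 12.5 and 7.46 in BRG1, at least 5.72-fold higher (DESeq2 adjusted p 5.3e-04). The eotaxins act on CCR3. CCL11 (eotaxin) rose from 39, 27 and 16.7 to 688, 243 and 52.2, with a fold of 17.6, 8.99 and 3.14 within sample numbers and a log2 fold change of 3.58 (SE 0.73, DESeq2 adjusted p 1.4e-05). CCL26, another eotaxin, had no Control count and stood at 23.2, 11.6 and 5.97 in BRG1, at least 4.32-fold higher (DESeq2 adjusted p 0.0020). CCL24 had no count, and CCL13 did not exceed 3.63 in any library. CCL7 and CCL26 were not tested by edgeR, and they were no longer called when BRG1 sample 1 was left out (DESeq2 adjusted p 0.109 and 0.167).

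Of the CC ligands around CCL3, CCL4 and CCL5, most of which act on CCR1, 4 of 11 were called higher. CCL5, which attracts T cells and monocytes (chromosome 17, 35871491 to 35880793), had 20.7, 7.04 and 9.09 normalised counts in Control and 1592, 1112 and 928 in BRG1. The BRG1 samples lay close together and far above Control, with a fold of 76.9, 158 and 102 within sample numbers, and the log2 fold change was 6.66 (SE 0.39, DESeq2 adjusted p 2.3e-62). Without the block CCL5 had the smallest adjusted p of the chemokine genes in DESeq2 and in edgeR, and with the block CCL2 did.

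The CCL3 and CCL4 genes, inflammatory ligands of macrophages and lymphocytes, exist in near-identical copies, so their values are uncertain. CCL4 was at 1.22, 1.17 and 0 in Control and at 200, 196 and 31.3 in BRG1 (ratio 245, 68 to 2031, DESeq2 adjusted p 8.7e-09). CCL4L2, its copy, had no Control count and stood at 170, 186 and 50.7 in BRG1, at least 43.1-fold higher (DESeq2 adjusted p 2.0e-11). Of the 31-base words of their transcripts, 37.8% of those of CCL4 and 21.2% of those of CCL4L2 also occur in transcripts of other genes. CCL3 had no Control count and stood at 55.1, 21.6 and 1.49 in BRG1, at least 8.28-fold higher (DESeq2 adjusted p 6.9e-04). It was not tested by edgeR and was not called without BRG1 sample 1 (DESeq2 adjusted p 0.141). An antisense gene covers 74.6% of the exonic bases of CCL3, and these libraries do not keep strand. The copy CCL3L3 held between 4.87 and 12.3 in all libraries and was not called, and CCL14, CCL15, CCL16, CCL23, CCL3L1 and the read-through CCL15-CCL14 did not exceed 8.96.

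Among the other CC ligands 2 of 10 were called higher. CCL20, the ligand of CCR6 on Th17 cells and dendritic cells (chromosome 2, 227805739 to 227817564), stood at 26.8, 24.6 and 21.2 in Control and at 878, 1001 and 70.1 in BRG1. The Control samples were alike, whereas BRG1 sample 3 was far below the other BRG1 samples, with a fold of 32.7, 40.6 and 3.31 within sample numbers (log2 fold change 4.75, SE 0.97, DESeq2 adjusted p 1.8e-05). CCL21, a ligand of CCR7 in lymphoid tissue, had no Control count and only 5.8, 10.8 and 8.96 in BRG1, and was not tested by edgeR. Its call (at least 2.71-fold, DESeq2 adjusted p 0.0151) was lost with the sample number as a block (DESeq2 adjusted p 0.0712). The call was also lost without Control sample 3 or any 1 BRG1 sample (DESeq2 adjusted p 0.0691 to 0.297). The remaining 8, among them the CCR4 ligands CCL17 and CCL22, stayed at or below 14.1 in all libraries.

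CX3CL1, a membrane-anchored chemokine that also acts as an adhesion molecule, rose from 2.44, 3.52 and 0 normalised counts to 115, 73.9 and 35.8. All 3 BRG1 samples were above all Control samples, and the ratio was 50.1 on 5 Control counts (21.2 to 155, DESeq2 adjusted p 4.3e-08). The lymphotactins XCL1 and XCL2 did not exceed 3.52 in any library.

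The other CXC ligands went separate ways. CXCL14, a ligand made by many epithelia (chromosome 5, 135570679 to 135579279), was at 2.44, 2.35 and 0.757 in Control and at 709, 390 and 221 in BRG1. The lowest BRG1 sample was far above the highest Control sample, and the ratio was 294 on 5 Control counts (126 to 906, DESeq2 adjusted p 1.5e-22). CXCL16, a transmembrane ligand of CXCR6 that is also a scavenger receptor, was abundant in both groups, at 1822, 1370 and 1384 in Control and 1697, 1588 and 1702 in BRG1. These samples overlapped, and the 95% interval of its log2 fold change ran from -0.21 to 0.46 (DESeq2 adjusted p 0.808).

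CXCL13, the B cell attractant that acts on CXCR5, was the only chemokine gene called lower by any of the tests, and only with DESeq2 and the sample number as a block. It stood at 63.3, 158 and 323 in Control and at 17.4, 90.5 and 233 in BRG1, so the groups overlapped but each BRG1 sample was below the Control sample of its number (ratio 0.275, 0.572 and 0.720). The log2 fold change was -0.69 without the block (DESeq2 adjusted p 0.746) and -0.99 with it (DESeq2 adjusted p 0.0424, edgeR with the block 0.0675). Without Control sample 3 the unblocked value was 0.025. CXCL12, the ligand of CXCR4 and ACKR3, was at 0 in all Control samples and did not exceed 5.97 in BRG1.

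The ELR ligands, which act on CXCR1 and CXCR2 and draw neutrophils, had the highest summed level of the chemokine groups in Control cells. Of these 6 ligands 1 was called, against 11.0% called higher of all genes with an adjusted p. Their summed level was 5744, 5893 and 6251 normalised counts in Control and 9174, 8326 and 5719 in BRG1, so that BRG1 sample 3 was below every Control sample. CXCL8 (interleukin-8, chromosome 4, 73740519 to 73743716) stood at 1411, 1266 and 1038 in Control and at 4885, 2725 and 1221 in BRG1. The groups overlapped, since BRG1 sample 3 was below Control samples 1 and 2, and the fold within sample numbers was 3.46, 2.15 and 1.18. CXCL8 passed with DESeq2 (log2 fold change 1.25, SE 0.42, adjusted p 0.0245) and not with edgeR (adjusted p 0.136). With the block these were 0.0718 for DESeq2 and 0.0261 for edgeR, and the unblocked DESeq2 call was lost on leaving out any 1 sample other than BRG1 sample 3 (adjusted p 0.0635 to 0.319).

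CXCL1 (chromosome 4, 73869393 to 73871308) was at 3437, 3745 and 3918 in Control and 3188, 4203 and 3513 in BRG1. The samples of both groups were intermixed, and the 95% interval of the log2 fold change ran from -0.34 to 0.29 (DESeq2 adjusted p 0.966). CXCL6 was intermixed too, at 532, 467 and 998 against 585, 673 and 697 (interval -0.64 to 0.57). CXCL3 (298, 355 and 218 against 413, 598 and 206), CXCL2 (36.5, 34 and 38.6 against 64.6, 80.6 and 29.9) and CXCL5 (29.2, 25.8 and 40.1 against 37.7, 47.3 and 52.2) were not called either, with DESeq2 adjusted p of 0.576, 0.459 and 0.596. CXCL2 and CXCL3 showed one order, with BRG1 samples 1 and 2 above every Control sample and BRG1 sample 3 below every Control sample. CXCL1, CXCL2 and CXCL3 share between 9.57% and 21.7% of their 31-base words with other genes and are uncertain to that extent.

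Among the CXC receptors, CXCR4 alone was called, 1 of 6. CXCR4, the receptor of CXCL12 in cell homing and migration (chromosome 2, 136114349 to 136119177), was already present in Control at 659, 672 and 601 and stood at 10947, 7300 and 2664 in BRG1. Control samples were alike and every BRG1 sample was higher, by 16.6, 10.9 and 4.43 times within sample numbers (log2 fold change 3.44, SE 0.41, DESeq2 adjusted p 4.8e-15). CXCR5 was at 538, 631 and 541 in Control and 700, 1211 and 651 in BRG1, which did not overlap (log2 fold change 0.58, DESeq2 adjusted p 0.184, with the block 0.0332 in DESeq2 and 0.0594 in edgeR), but exons of other genes cover 91.1% of its exonic bases. CXCR6 was at 15.8, 10.6 and 15.1 against 40.6, 19.9 and 23.9, which also did not overlap (DESeq2 adjusted p 0.330). CXCR1 and CXCR2, the receptors of the abundant ELR ligands, were at 0 or below 10 in all libraries.

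Among the CC receptors 2 of 10 were called, and both lie on chromosome 3, where the annotated span of CCR3 encloses CCR1 without a shared exon. CCR3, the eotaxin receptor of eosinophils (46130890 to 46266706), stood at 3.65, 1.17 and 4.54 in Control and at 507, 350 and 278 in BRG1 (log2 fold change 6.85, SE 0.57, DESeq2 adjusted p 2.0e-31). CCR1, a receptor of CCL3 and CCL5 (46201711 to 46208313), stood at 19.5, 25.8 and 35.6 in Control and at 225, 213 and 224 in BRG1 (log2 fold change 3.00, SE 0.31, DESeq2 adjusted p 2.6e-20). BRG1 sample 3 was thus level with the others for CCR1, in contrast to most of the called genes. CCR10 was at 104, 170 and 142 against 115, 178 and 112, and its log2 fold change had a 95% interval from -0.68 to 0.61. CCR2, CCR4, CCR6, CCR7, CCR8 and CCR9 did not exceed 3.79.

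XCR1, the lymphotactin receptor of cross-presenting dendritic cells, was at 0, 0 and 2.27 in Control and at 55.1, 24.9 and 13.4 in BRG1, a ratio of 35.3 on 3 Control counts (11.8 to 174, DESeq2 adjusted p 5.0e-04). Its call was lost without BRG1 sample 1 (DESeq2 adjusted p 0.0576). CX3CR1, the receptor of CX3CL1, did not exceed 8.53 and was not called.

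Of the atypical receptors, 3 of 4 were called. ACKR3, which takes up CXCL12 and CXCL11 (chromosome 2, 236567787 to 236582354), was at 3.65, 1.17 and 2.27 in Control and at 1053, 797 and 178 in BRG1. ACKR1, the Duffy antigen that binds both CC and CXC ligands (chromosome 1, 159204875 to 159206500), was at 0, 1.17 and 0.757 in Control and at 134, 115 and 140 in BRG1. Both sets of samples were fully apart, and for ACKR1 the BRG1 samples were alike, with sample 3 the highest. The ratio was 333 on 7 Control counts for ACKR3 (161 to 829, DESeq2 adjusted p 1.3e-23) and 192 on 2 Control counts for ACKR1 (53 to 1594, DESeq2 adjusted p 5.2e-11). ACKR2, a scavenger of inflammatory CC ligands, was at 20.7, 8.21 and 24.2 against 169, 64 and 16.4. Its groups overlapped in sample 3, and its call with DESeq2 (log2 fold change 2.23, adjusted p 0.0398) was absent with edgeR (adjusted p 0.151) and under the block (DESeq2 adjusted p 0.0590), and was lost on leaving out any 1 sample other than BRG1 sample 3 (DESeq2 adjusted p 0.0663 to 0.655). ACKR4, which takes up CCL19, CCL21 and CCL25, was at 6.09, 19.9 and 7.57 against 34.8, 21.6 and 28.4 and was not called (DESeq2 adjusted p 0.221).

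Levels were then compared between genes per transcript length, in approximate TPM, a level per transcript length scaled to the same total in each library. In Control the most abundant chemokine transcript was CXCL1 at 107 ± 5.98 TPM (SD, n = 3), followed by CXCL8 at 36.1 ± 5.89 and CXCL16 at 34.4 ± 6.51, a pair whose levels lay within their spread. In BRG1 the highest mean was that of CCL2, at 449 ± 356 TPM against 5.17 ± 3.72 in Control. CXCR4 came next at 148 ± 87.2 TPM (12.5 ± 0.74 in Control), then CXCL1 at 115 ± 17.3 and CXCL8 at 93.5 ± 58.0, and with these SDs neighbours in the order among these genes were not separated. CCL5 reached 42.6 ± 11.8 TPM from 0.41 ± 0.24, and CXCL16 was close to it at 40.8 ± 1.35. CCL20 reached 35.1 ± 27.3 TPM, ACKR3 18.5 ± 12.2 and CCR3 11.7 ± 3.55. The genes with the largest ratios, such as CCL8 at 10.1 ± 3.72 TPM in BRG1, were thus not the most abundant.

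**Figure D2:**
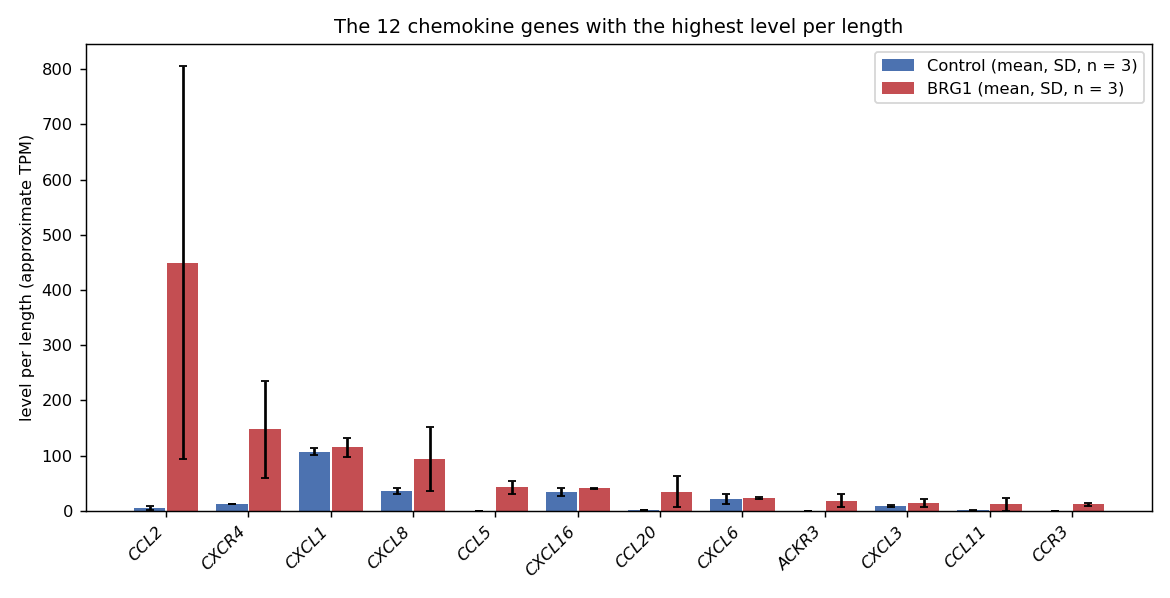
Level per transcript length in approximate TPM for the 12 chemokine genes with the highest mean in either group, as bars of the mean with the SD (n = 3) for Control and BRG1. CCL2 rises from 5.17 to 449 TPM with a wide SD, CXCR4 from 12.5 to 148, and CXCL1 stands at 107 and 115.

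Ligands and receptors that pair with each other could be read side by side. CXCR4 rose while its ligand CXCL12 stayed at or below 5.97 normalised counts. ACKR3, which binds CXCL11, rose together with CXCL11. CCR1 and CCR3 rose together with CCL5, CCL7, CCL8, CCL11 and CCL26, which act on one or both. By contrast CCR2, the receptor of CCL2, CCR6, the receptor of CCL20, and CXCR3 were at or near 0. In these libraries transcripts alone were measured, not secreted protein.

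Many chemokine genes lie in clusters, so neighbouring genes without a chemokine name were examined. Neighbours were the other protein-coding genes of the table within a cluster or 200000 bases of it. Between CCL2 and CCL1 on chromosome 17 (34255274 to 34363233), 4 of 6 chemokine genes were called higher, as was the only neighbour, the ion channel gene ASIC2 (from 0.25 to 71.8 normalised counts on average). In the second cluster of chromosome 17, from CCL5 to CCL4L2 (35871491 to 36212878), 4 of 11 chemokine genes were called and 2 of 9 tested neighbours, GAS2L2 and MMP28. In the receptor cluster of chromosome 3 that begins with CCR9, XCR1, CCR3 and CCR1 were called, 3 of 7, and LTF among 6 tested neighbours.

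On chromosome 4 the clusters differed from each other. From CXCL9 to CXCL11 (76001275 to 76041415) 2 of 3 chemokine genes were called and 0 of 5 tested neighbours. From CXCL8 to CXCL2 (73740519 to 74099196) 1 of 6 was called, CXCL8, and of 5 tested neighbours, which include the platelet ligand genes PF4, PF4V1 and PPBP, none was called higher and MTHFD2L was called lower. Between CCL22 and CCL17 on chromosome 16 (57358783 to 57416063), CX3CL1 was the 1 of 3 that was called, with the neighbour ADGRG1. CCL26 was called and CCL24 was not on chromosome 7, with 0 of 5 tested neighbours, and on chromosome 9 CCL21 was called beside CCL27 and CCL19, with 1 of 11 neighbours, CNTFR. No chemokine gene was called in the pairs XCL2 and XCL1, CXCR2 and CXCR1, or CX3CR1 and CCR8. Of 8 tested neighbours of CXCR2 and CXCR1, RUFY4 and TNS1 were called higher, and of 8 at CX3CR1 and CCR8, RPSA was called lower. The neighbours were named after their values were seen.

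**Figure D3:**
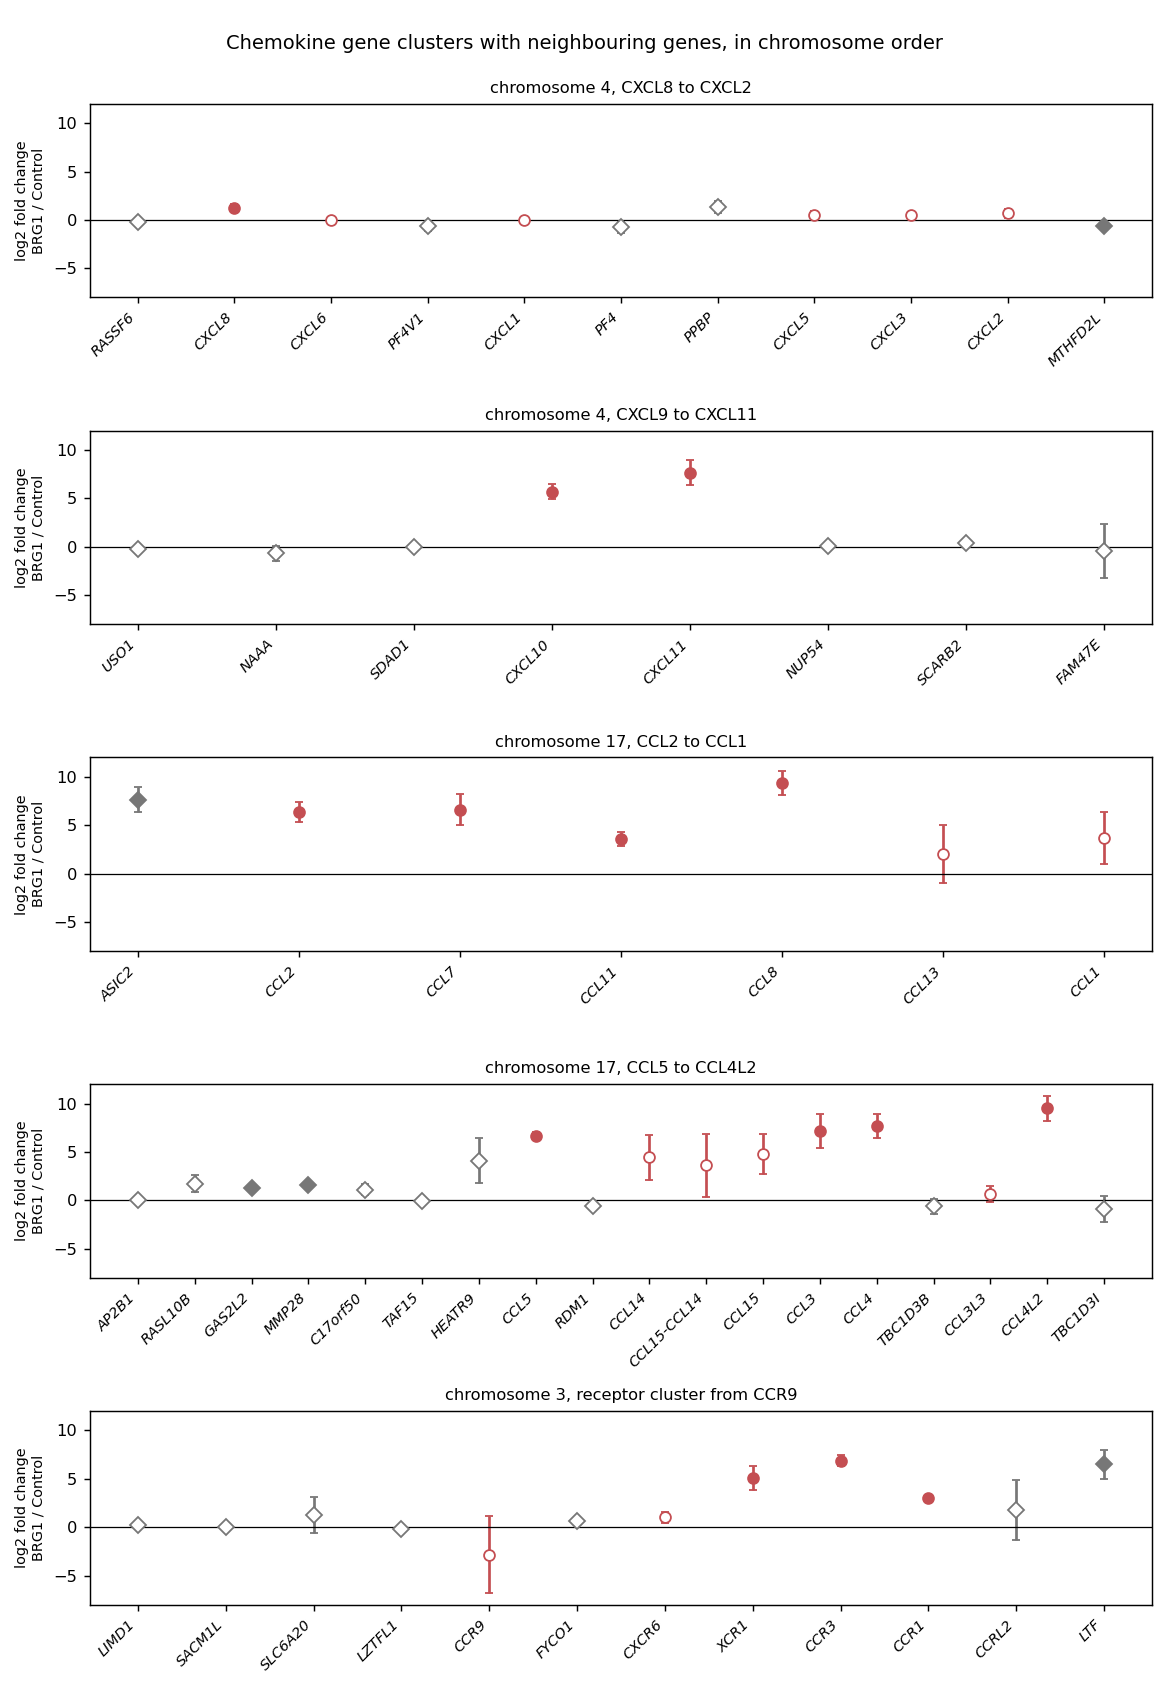
Log2 fold change of BRG1 over Control with its standard error for chemokine genes (circles) and neighbouring genes (diamonds) in 5 clusters, in chromosome order and not to scale, filled where the DESeq2 adjusted p was under 0.05, with genes at 3 counts or fewer in all libraries left out. Called chemokine genes sit between about 1.25 (CXCL8) and 9.50 (CCL4L2), and next to them lie neighbours near 0, such as NUP54 beside CXCL11.

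Genes that induce, couple or present chemokines were examined as a list of 49 genes, of which 44 had an adjusted p. Of the 44, 13 were higher by DESeq2 (against 11.0% of all genes), and of the 38 that edgeR tested 11 were (against 9.57%). Neither test called any lower, while 1 gene with a negative change had an unadjusted p below 0.05 in DESeq2. With the sample number as a block DESeq2 called 19 higher and 1 lower, where all genes gave 13.4% and 6.61%. Of 18 inducing cytokines and transcription factors, 8 were called higher. Interferon beta (IFNB1) was at 0, 1.17 and 0 in Control and at 79.1, 61.5 and 31.3 in BRG1 (DESeq2 adjusted p 6.8e-07). STAT2 and IRF9, partners in interferon signalling, rose by 1.33 and 2.13 on the log2 scale (DESeq2 adjusted p 2.8e-12 and 1.1e-52). Interferon gamma (IFNG) did not exceed 5.97.

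The inflammatory cytokines were called as well. IL1B rose from 9.75, 4.69 and 1.51 to 1288, 583 and 476 (log2 fold change 7.30), IL1A from 3.65, 4.69 and 0 to 338, 113 and 91, and IL6 from 1.22, 7.04 and 3.03 to 782, 117 and 29.9. TNF was at 6.09, 2.35 and 0 against 65.3, 26.6 and 2.99 (DESeq2 adjusted p 0.0441, not tested by edgeR), so it overlapped in sample 3.

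The samples with number 3 stood apart in the NF-kappaB and IRF1 branch in both groups. IRF1 was at 6400, 5760 and 570 in Control and at 14244, 16698 and 2233 in BRG1, and NFKBIA, the feedback inhibitor of NF-kappaB, at 5604, 5141 and 807 against 10087, 8362 and 1788. In each group sample 3 was several times lower than samples 1 and 2, and neither gene was called (DESeq2 adjusted p 0.586 and 0.765). With the block both were called (DESeq2 adjusted p 1.1e-21 and 5.3e-12), as were TNFAIP3, NFKB1 and NFKB2. CCL20, CCL2 and CXCL8 were also lowest in sample 3 of both groups, whereas CCL5, CCR1, ACKR1 and IRF9 were not. The part of sample number 3 in the chemokine values was not tested beyond leaving it out: without both samples of that number, DESeq2 called 22 chemokine genes higher.

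**Figure D4:**
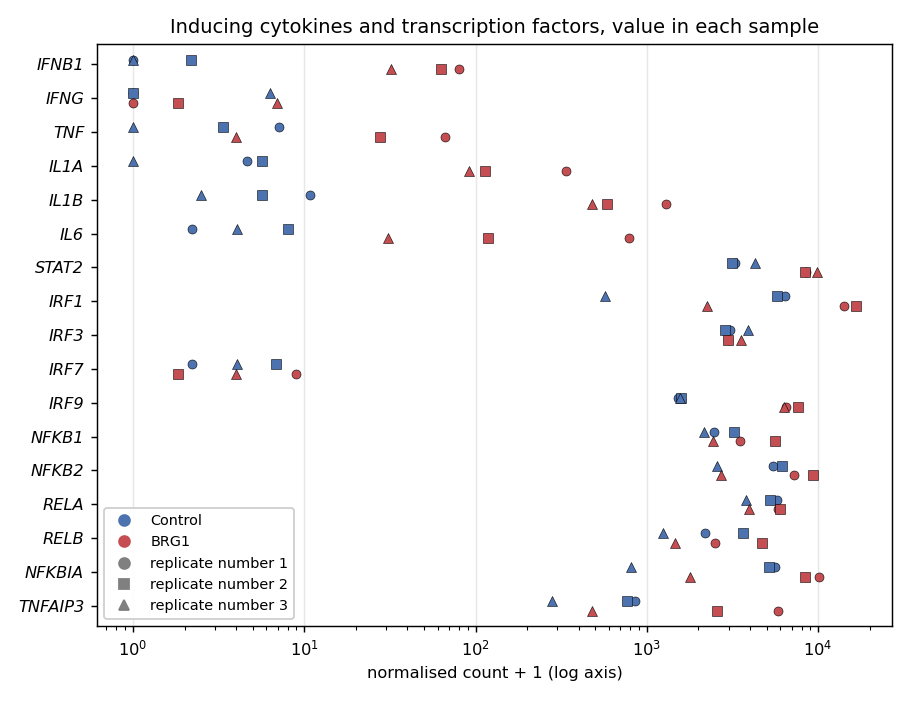
Normalised count plus 1 on a log axis for inducing cytokines and transcription factors, 1 point per sample with colour for the group and shape for the replicate number. IFNB1, IL1A, IL1B, IL6, STAT2 and IRF9 separate by group, and for IRF1 and NFKBIA the triangles of sample 3 lie far left of the other samples of both groups.

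Of 19 genes of receptor coupling and desensitisation, 16 had an adjusted p and 2 of these were called higher, a share near the 11.0% of all genes. GNAI2, the main inhibitory G protein subunit behind chemokine receptors, rose by 0.55 on the log2 scale (DESeq2 adjusted p 0.0110), and DOCK2, a leukocyte activator of Rac, was at 1.22, 0 and 0 in Control and at 180, 93.9 and 22.4 in BRG1 (DESeq2 adjusted p 1.9e-07). Of 8 genes that cleave or present chemokines, 7 had an adjusted p and 3 were called. DPP4, a protease that trims the first residues of CXCL10, CXCL12 and CCL5, rose from 26.8, 24.6 and 18.2 to 510, 251 and 121 (log2 fold change 3.68, DESeq2 adjusted p 6.5e-11). The syndecans carry heparan sulfate, which holds chemokines at the cell surface. SDC2 rose by 2.65 on the log2 scale (DESeq2 adjusted p 5.3e-13), and SDC4 was called at low counts, up to 22.5 (DESeq2 adjusted p 0.0356, with the block 0.0823, not tested by edgeR). ADAM10 and ADAM17, which shed CX3CL1 and CXCL16, were not called. None of PF4, PF4V1, PPBP and CCRL2 was called.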

How the data were processed

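RNA was sequenced from 3 Control and 3 BRG1 samples of COV434 as unstranded TruSeq mRNA libraries (500 ng RNA, read pairs of 78 bases). Per the labels and the methods, reads were checked with FastQC 0.11.5, aligned with STAR 2.5.3a (hg38), quantified with Salmon 0.8.2 and summed to genes. The table that the authors deposited gives 1 estimated count per gene symbol and sample, scaled by them to transcript length and library size. Reads that fit several genes were shared out by the quantifier, so values of near-identical or overlapping genes are uncertain, and antisense transcripts add to a gene.

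Estimated counts were rounded and tested over the whole table with DESeq2 1.42.0 in R 4.3.3 (Wald test, BRG1 against Control, no covariate, median-ratio size factors, independent filtering), and genes were called at a Benjamini-Hochberg adjusted p under 0.05. Following the study's methods, DESeq2 was the main test. The quasi-likelihood test of edgeR 4.0.16, TMM size factors, a minimum of 10 counts in 3 samples, the replicate number as a block and leaving out each sample were alternatives. DESeq2 and edgeR, each with and without the block, were tested on simulated data, where the share of false calls by DESeq2 exceeded its threshold, so edgeR counts are given beside it. CCL3, CCL7, CCL21, CCL26, TNF and SDC4 did not pass the count filter of edgeR, so their calls rest on DESeq2 alone. Totals of 29699741 to 63613710 estimated counts limit the precision of low genes, and intervals cover counting error only where this is said. TPM were approximated from the mean length of protein-coding transcripts (GENCODE release 44, 65 of the 67 genes). Gene positions are from the same release on GRCh38, and promoters are from RefSeq.

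The replicate numbers were treated as pairing the samples, as a hint from the data: deviations from the group means correlated between same-numbered samples (r = 0.341, 0.298 and 0.459 over 14220 genes) and not between others (-0.362 to 0.069). Named were the chemokine genes called by DESeq2 with or without the block or by edgeR, or with a mean of at least 10 in either group (35 genes), and the called pathway genes. Members and lists were chosen with earlier results of these data known. A few genes of these lists are counted but not reported by name here.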

Additional observations from a re-analysis of the deposited data

How the results depend on the processing

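The count of 23 chemokine genes called higher stayed within 1.5 times in every alternative run, from 17 (edgeR, or at least 10 counts in 3 samples) to 23 (TMM size factors), with 21 under the replicate block and 18 where edgeR also had the block. With 1 sample left out it was lowest, 16, when BRG1 replicate 1 was missing and highest, 24, when BRG1 replicate 3 was. The block pairs samples by number. With it, 1 chemokine gene (CXCL13) was called lower by DESeq2, and 1 pathway gene (ADRBK2) by DESeq2 and by edgeR. Pathway genes called lower ranged from 0 to 1 with 1 sample left out.

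Of 35 named chemokine genes, 35 kept direction and call with TMM size factors, and with the filter on low counts 29 of the 30 still tested did, ACKR2 losing its call (DESeq2 adjusted p 0.0521). Values of CXCL6, CCR10, CXCL1 and CXCL13 changed sign, and of these CXCL13 alone was called in any fit, under the block. CXCL6 had a log2 fold change of 0.047 under the block and 0.032 where edgeR had it, against -0.03 without it. Without both samples of number 3, chosen after seeing the data, CCR10 was at 0.092, CXCL1 at 0.040 and CXCL6 at 0.33. With 1 sample left out CCR10 ranged from -0.29 to 0.13, CXCL1 from -0.14 to 0.063, CXCL6 from -0.24 to 0.38 and CXCL13 from -1.76 to 0.025. CXCL3 (DESeq2 adjusted p 0.0498) and CXCR5 (0.0443) were called without BRG1 replicate 3, and ACKR4 (0.0487) without Control replicate 2. The cause was not tested. Apart from CXCL13, CXCR5, CXCL8, ACKR2 and CCL21, the block in DESeq2 changed no call of a named chemokine gene. Depth limits the genes that held 3 counts or fewer in Control, whose fold cannot be set.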
